A study of Mus musculus with 6 samples.

Results

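Messenger RNA of 10 genes of the ATF4 branch of the integrated stress response was followed in bulk mouse liver. They were taken by gene symbol (Atf4, Atf5, Ddit3, Trib3, Chac1, Nupr1, Ppp1r15a, Asns, Psat1 and Phgdh) from a count table of 35977 genes, and each had exactly 1 row. Every liver came from a mouse given AAV9, a gene-delivery virus derived from adeno-associated virus, in which the promoter of Tnnt2, the cardiac troponin T gene, drives Cre recombinase. The first group, Cre, had this vector (AAV-Tnnt2-Cre, replicates 10, 11 and 12). The second group, Cre-miR122, had a vector that also carries target sites of miR-122, a microRNA abundant in hepatocytes (AAV-Tnnt2-Cre-miR122, replicates 1, 2 and 4). Both groups therefore received AAV and a Cre cassette, and no liver without a vector was analysed here. The labels state no strain, genotype, age, sex, dose, time after injection or batch, nor whether libraries came from separate animals, so p-values measure the spread between these libraries, which may be partly technical.

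In the integrated stress response, kinases that sense endoplasmic reticulum stress, amino acid shortage, heme shortage or double-stranded RNA phosphorylate the translation factor eIF2. General translation then slows, while the mRNA of Atf4, which has upstream open reading frames, is translated more. The ATF4 protein binds DNA together with C/EBP proteins and switches on genes for amino acid synthesis, amino acid import and tRNA charging, and, under long stress, the gene of the death-promoting factor CHOP. Because ATF4 is controlled mainly at translation, the mRNA of Atf4 is not a measure of its protein, and its target genes are the usual readout. In the liver the pathway is known to respond to the supply of dietary protein.

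The libraries were alike in depth, with 20340994 to 20817837 total counts, and they had the composition of liver. The 10 hepatocyte markers summed to between 152000 and 185000 CPM (counts-per-million, on scaled library sizes), whereas 6 cardiac muscle markers summed to at most 0.839 CPM, with Actc1 at 0 counts in every library. Markers of B cells lay apart between the vector groups, and those of neutrophils did so only in part. The 5 B cell markers summed to 21.1 to 27.1 CPM in the Cre libraries and 12.4 to 16.4 CPM in the Cre-miR122 libraries. All 5 lay lower with Cre-miR122 at an unadjusted edgeR p under 0.05, where 2.65% of all genes tested did. Their median log2 fold change (Cre-miR122 minus Cre) was -0.65. The neutrophil markers summed to 9.36 to 12.6 CPM against 7.59 to 9.23 CPM. All 4 that could be tested of 5 lay lower, 2 of them at an unadjusted p under 0.05, with a median of -0.46. The groups did not overlap for 2, S100a8 and S100a9, and overlapped for Mpo and Elane. Over all genes tested the groups did not overlap for 11.1%. By edgeR's adjusted p 0 markers of either list were called. Kupffer cell marker sums overlapped, at 463 to 567 CPM and 388 to 519 CPM. The other marker sums ran from 267 to 338 CPM for endothelial cells, 356 to 448 CPM for stellate cells, 61.9 to 76.4 CPM for cholangiocytes, 4.51 to 5.73 CPM for T and NK cells and 202 to 530 CPM for erythroid cells. Cre replicate 10 stood apart in its sex-linked genes, with 1676 counts of the Y-linked Ddx3y where the other libraries had at most 1. The X-linked Xist had 5 counts there and 15778 to 22413 in the other libraries. The only such library was in the Cre group, so by these genes sex was not balanced between the groups. The Cre row itself had 37 to 61 counts per library with the first vector and 10 to 16 with the second (Ddx3y, Xist and Cre were named after their values were seen).

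The DNA element through which ATF4 and its C/EBP partners act, the C/EBP-ATF composite element, was searched as TGATGNAA on both strands in the RefSeq promoters of the 10 genes (build GRCm38.p6, 250 bases before to 50 bases after each annotated start, 12 promoters). At least 1 match was found for 4 of the 10 genes, Chac1, Asns, Nupr1 and Trib3, whereas 3.97% of all 32851 promoters of that length had one. The cAMP response element, TGACGTCA, was found in the promoter of Ppp1r15a and in 1.79% of all promoters. The 30-base windows around these matches are printed 5′ to 3′ on the gene's own strand, with the match in capitals. A match is a string of letters and not a site shown to be bound.

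Chac1, chr2:119351038-119351067, match starting at position -193 from the start: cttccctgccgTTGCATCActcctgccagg
Asns, chr6:7693214-7693243, match at position -23: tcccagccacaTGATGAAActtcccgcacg
Nupr1, chr7:126625562-126625591, match at position -110: aaagggccagaTTGCATCAgacagggcttg
Trib3, chr2:152344028-152344057, match at position 15, within the transcribed part: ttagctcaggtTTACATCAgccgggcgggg
Ppp1r15a, chr7:45526262-45526291, cAMP response element at position -12: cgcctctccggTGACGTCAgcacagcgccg

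The Chac1 and Nupr1 matches read TTGCATCA, the element on the opposite strand, and the Asns match reads in the same direction as the gene. The Asns position is counted from a RefSeq start that lies upstream of the start of Asns in the count table (chr6:7693182). The other 6 genes had no such string in this window, which says only that these letters are not there.

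None of the 10 genes differed between the vectors past the threshold. All 10 passed the filter on low counts, and by the edgeR quasi-likelihood test 0 were called at an adjusted p under 0.05, where the test called 0% of 14374 genes tested. The smallest adjusted p among them was 0.816 by edgeR, 1.00 by DESeq2 and 0.815 by limma-voom. At an unadjusted edgeR p under 0.05 there was 1 of the 10, Atf5, on the side lower with Cre-miR122 (2.65% of all genes tested) and 0 on the higher side (2.76%; 5.41% in either direction). Libraries of the 2 groups overlapped for every one of the 10 genes, while they did not overlap for 11.1% of all genes tested. The Cre row, whose groups did not overlap, was not called either. Its log2 fold change was -1.95 (SE 0.28, edgeR adjusted p = 0.816), so a gene that was not called may still differ. Of the 10 genes 7 had a log2 fold change below 0 (Cre-miR122 minus Cre) and 3 above 0, with a median of -0.25, beside 50.6% below 0 and a median of -0.0029 over all genes tested. Within the second group, Cre-miR122 replicates 2 and 4 each lay below the gene's own 6-library mean for 8 of the 10 genes, whereas Cre-miR122 replicate 1 lay above it for 8 of 10. Within the first group, Cre replicate 12 lay below that mean for 7 of the 10 genes, and Cre replicates 10 and 11 lay above it for 8 and 7. The B cell and neutrophil markers given above lay on the lower side with Cre-miR122, and their part in the values of the 10 genes was not tested.

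**Figure D1:**
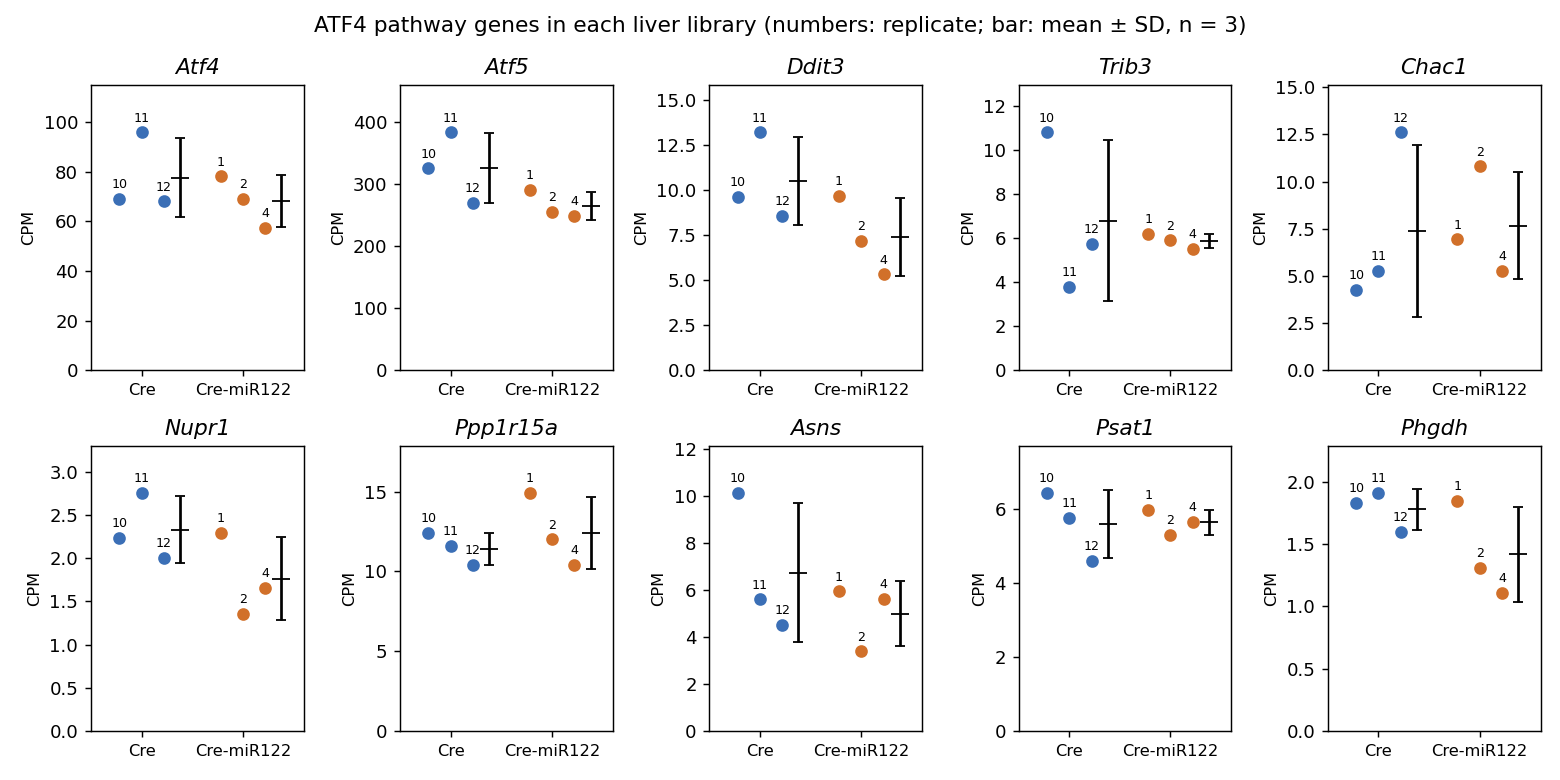
Each panel plots 1 gene, with CPM on a vertical axis that starts at 0, a point for each library (labelled with its replicate number) and the mean ± SD of the 3 libraries of each vector in black. The points of the vectors overlap in all 10 panels, and Trib3 and Asns in Cre replicate 10 and Chac1 in Cre replicate 12 stand above the other libraries.

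The 3 transcription factor genes were highest in Cre replicate 11 and lowest in Cre-miR122 replicate 4. Atf4 (chr15:80255184-80257545, plus strand, build mm10 as in the count table, which holds for all gene positions given here), which encodes the central factor of the branch, was at 69.2, 95.9 and 68.1 CPM in Cre replicates 10, 11 and 12 and at 78.2, 69.0 and 57.5 CPM in Cre-miR122 replicates 1, 2 and 4. Cre replicate 11 was the highest, and the remaining libraries of both groups were mixed. The group means were 77.7 ± 15.8 CPM and 68.2 ± 10.4 CPM (SD, n = 3 each, Cre first). Its log2 fold change was -0.19 (SE 0.15, edgeR adjusted p = 0.824), and it was -0.01 without Cre replicate 11 and -0.079 when Cre-miR122 replicate 4 was left out.

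Atf5 (chr7:44812256-44816658, minus strand) encodes a factor related to ATF4 that is also controlled at translation and is abundant in liver. It was at 325, 383 and 270 CPM in Cre replicates 10, 11 and 12 and at 291, 255 and 248 CPM in Cre-miR122 replicates 1, 2 and 4. The groups overlapped through a single pair, since Cre-miR122 replicate 1 lay above Cre replicate 12. The means were 326 ± 56.8 and 265 ± 22.7 CPM (SD, n = 3 each) and the log2 fold change was -0.30 (SE 0.13, edgeR adjusted p = 0.816). The exact two-sided permutation test gave p = 0.2, where 0.1 is the smallest that 3 libraries against 3 allow. Without Cre replicate 11 the log2 fold change was -0.17, on the same side of the threshold. The exons of Atf5 share 82 bases with Nup62 and Gm21948 on the other strand. Nup62 had 266 to 380 counts and Atf5 5128 to 8226, and the part of the shared bases was not tested.

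Ddit3 (chr10:127290793-127296291, plus strand), the gene of CHOP, had the most negative log2 fold change of the 10. It was at 9.61, 13.2 and 8.55 CPM in Cre replicates 10, 11 and 12 and at 9.67, 7.20 and 5.32 CPM in Cre-miR122 replicates 1, 2 and 4. Cre-miR122 replicate 1 sat among the Cre libraries, and the other Cre-miR122 libraries sat below all of them. The log2 fold change was -0.50 (SE 0.23, edgeR adjusted p = 0.816), with an exact permutation p of 0.3 over 3 libraries against 3. It was -0.30 when Cre replicate 11 was left out, -0.31 for Cre-miR122 replicate 4 left out and -0.74 for Cre-miR122 replicate 1. The highest and the lowest library differed beyond counting error, with exact 95% Poisson intervals of 11.7 to 14.9 CPM and 4.37 to 6.42 CPM. Ddit3 shares 71 exon bases with Mars, the methionyl-tRNA synthetase gene on the other strand, whose counts lay between 993 and 1083 in all 6 libraries. The part of these shared bases in the Ddit3 counts was not tested.

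Among the 4 genes of feedback and cell fate, Trib3 and Chac1 varied most and each was led by different libraries. Trib3 (chr2:152337425-152344060, minus strand) encodes a pseudokinase that is induced by ATF4 and CHOP and restrains them. It was at 10.8, 3.78 and 5.75 CPM in Cre replicates 10, 11 and 12 and at 6.18, 5.90 and 5.52 CPM in Cre-miR122 replicates 1, 2 and 4. The Cre group thus held both the highest and the lowest library, 2.87-fold apart, while the Cre-miR122 libraries lay close together. Counts were 219 in Cre replicate 10 (95% Poisson interval 191 to 250) and at most 124 elsewhere (103 to 148). The log2 fold change of -0.21 (SE 0.32, edgeR adjusted p = 0.901) turned to 0.30 without Cre replicate 10 and was -0.50 when Cre replicate 11 was left out. Cre replicate 10 is also the library with Y-linked counts, and the part of sex in the Trib3 level cannot be told apart from that library.

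Chac1 (chr2:119351242-119354326, plus strand) encodes an enzyme that degrades glutathione and is among the ATF4 targets that respond most to stress. It was at 4.26, 5.27 and 12.6 CPM in Cre replicates 10, 11 and 12 and at 6.93, 10.8 and 5.27 CPM in Cre-miR122 replicates 1, 2 and 4. Its high libraries were Cre replicate 12 and Cre-miR122 replicate 2, neither of which was highest for any other gene of the 10, and its lowest was Cre replicate 10, where Trib3 was highest. Both ends of its 2.96-fold spread were Cre libraries. Between the groups the log2 fold change was 0.058 (SE 0.39, edgeR adjusted p = 0.978). It was 0.68 without Cre replicate 12, and it turned negative when Cre replicate 10 (-0.22), Cre replicate 11 (-0.14) or Cre-miR122 replicate 2 (-0.27) was left out.

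Nupr1 (chr7:126623246-126625470, minus strand) encodes a small stress-induced chromatin protein. It was at 2.23, 2.75 and 2.0 CPM in Cre replicates 10, 11 and 12 and at 2.29, 1.35 and 1.65 CPM in Cre-miR122 replicates 1, 2 and 4, from 28 to 59 counts a library. As for Ddit3, Cre replicate 11 was highest and Cre-miR122 replicate 1 lay among the Cre libraries. The log2 fold change was -0.40 (SE 0.24, edgeR adjusted p = 0.816), and leaving out Cre-miR122 replicate 1 gave -0.63, Cre-miR122 replicate 2 -0.24 and Cre replicate 11 -0.26. At this depth the 95% Poisson intervals of its highest library (2.09 to 3.55 CPM) and its lowest library (0.900 to 1.96 CPM) were just apart.

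Ppp1r15a (chr7:45522917-45526268, minus strand) encodes GADD34, which directs a phosphatase to eIF2 and so ends the response. It was at 12.4, 11.6 and 10.4 CPM in Cre replicates 10, 11 and 12 and at 14.9, 12 and 10.4 CPM in Cre-miR122 replicates 1, 2 and 4. Its libraries were within 1.44-fold of each other. It shares 11 exon bases with Tulp2, a neighbor with 6 to 13 counts, and the part of these bases was not tested. Cre-miR122 replicate 1 was the highest, the only gene of the 10 to peak there. Its log2 fold change was 0.11 (SE 0.14, edgeR adjusted p = 0.878) and turned to -0.035 without Cre-miR122 replicate 1.

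The 3 genes of amino acid synthesis were few in counts, and Asns was the most variable of them. Asns (chr6:7675165-7693182, minus strand) encodes asparagine synthetase, a standard ATF4 target. It was at 10.1, 5.59 and 4.5 CPM in Cre replicates 10, 11 and 12 and at 5.93, 3.38 and 5.61 CPM in Cre-miR122 replicates 1, 2 and 4. Cre replicate 10 was the highest, as for Trib3, with a 95% Poisson interval of 8.77 to 11.6 CPM, and the next library was at 5.93 CPM (4.92 to 7.10 CPM). The log2 fold change of -0.44 (SE 0.31, edgeR adjusted p = 0.819) was -0.023 without Cre replicate 10. That library is also the one with Y-linked counts, and the part of sex in the Asns level cannot be told apart from it. Leaving out Cre replicate 12 gave -0.65 and leaving out Cre-miR122 replicate 2 gave -0.22.

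Psat1 and Phgdh encode enzymes of serine synthesis from a glycolytic intermediate, phosphoserine aminotransferase and phosphoglycerate dehydrogenase. Psat1 (chr19:15905123-15925059, minus strand) was at 6.44, 5.78 and 4.6 CPM in Cre replicates 10, 11 and 12 and at 5.98, 5.32 and 5.66 CPM in Cre-miR122 replicates 1, 2 and 4. It was the least variable of the 10, at 1.40-fold between its extremes, and its log2 fold change was 0.012 (SE 0.15, edgeR adjusted p = 0.988), a value so near 0 that its sign turned with the scaling (-0.0052 with upper-quartile and -0.012 with no scaling). Phgdh (chr3:98313171-98339969, minus strand) was at 1.83, 1.91 and 1.6 CPM in Cre replicates 10, 11 and 12 and at 1.85, 1.31 and 1.11 CPM in Cre-miR122 replicates 1, 2 and 4. With 23 to 41 counts a library, its extremes, 1.37 to 2.59 CPM and 0.706 to 1.67 CPM by 95% Poisson interval, overlapped within counting error. Its log2 fold change was -0.33 (SE 0.24, edgeR adjusted p = 0.821). Leaving out Cre-miR122 replicate 1 gave -0.56 and leaving out Cre-miR122 replicate 4 gave -0.18.

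The 10 genes did not vary as a unit across the libraries. Cre replicate 11 held the highest value of 5 genes (Atf4, Atf5, Ddit3, Nupr1 and Phgdh), Cre replicate 10 of 3 (Trib3, Asns and Psat1), Cre replicate 12 of 1 (Chac1) and Cre-miR122 replicate 1 of 1 (Ppp1r15a). Cre-miR122 replicate 4 held the lowest value of 5 genes. In Cre replicate 11 Ddit3 lay 0.62 above its 6-library mean on the log2 scale and Atf4 0.41 above, while Trib3 stood at -0.67 there, its lowest value. In Cre replicate 10 Trib3 lay 0.85 and Asns 0.87 above their means, and Atf4 stood at -0.06. The 4 genes with the composite element peaked in 3 different libraries, Trib3 and Asns in Cre replicate 10, Nupr1 in Cre replicate 11 and Chac1 in Cre replicate 12. The within-group biological coefficient of variation estimated by edgeR was 32.9% for Chac1, 26.2% for Trib3 and 25.5% for Asns, where the common value over all genes was 11.8%. It was 19.1% for Ddit3, 16.0% for Nupr1, 14.0% for Atf4, 13.8% for Phgdh, 12.6% for Atf5, 12.2% for Ppp1r15a and 11.7% for Psat1.

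**Figure D2:**
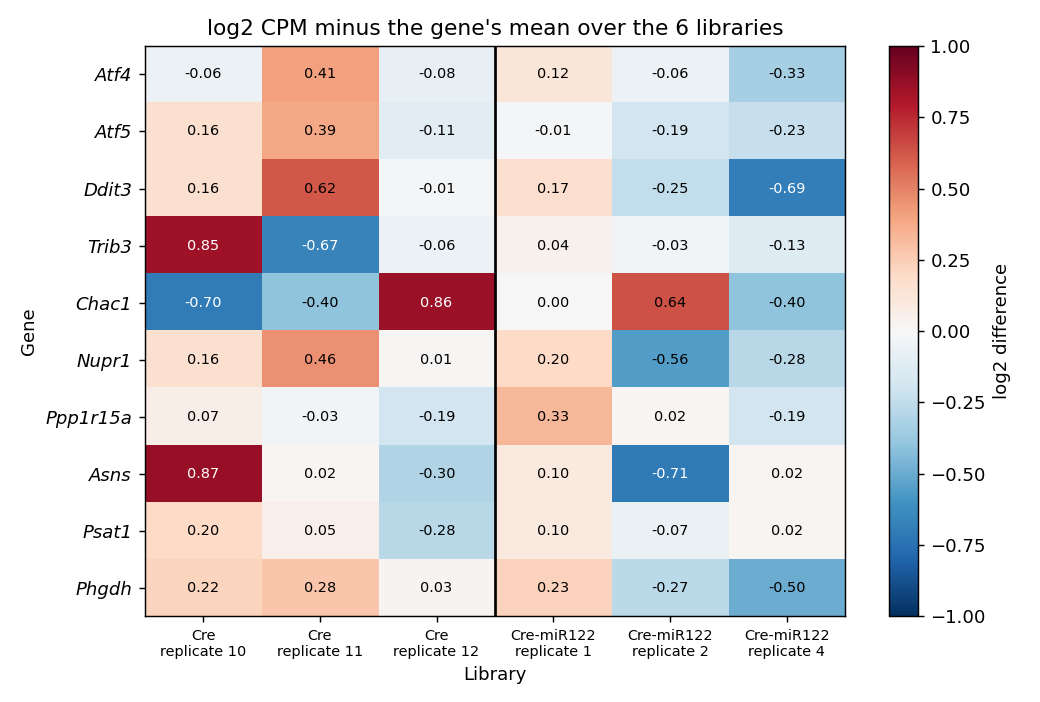
Rows are the 10 genes and columns the 6 libraries, and the color and the printed number give log2 CPM minus the gene's mean over the 6 libraries (red above, blue below). Atf4, Atf5, Ddit3 and Nupr1 are red in Cre replicate 11, whereas Trib3 and Asns are darkest red in Cre replicate 10 and Chac1 in Cre replicate 12.

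The library that led the transcription factor genes differed in its cell markers too. Cre replicate 11 had the lowest hepatocyte sum (152000 CPM against 175000 to 185000 CPM), the highest Kupffer cell and B cell sums, and the highest sum of the 3 transcription factor genes (493 CPM against 311 to 404 CPM). Single markers went both ways. The hepatocyte sum was mostly albumin mRNA, Alb, at 93400 CPM in this library, and of 10 hepatocyte markers 5 were lowest there while 2, Apoa1 and Serpina1c, were highest. Of 7 Kupffer cell markers 4 were highest there, and Vsig4, Adgre1 and Csf1r were higher in Cre-miR122 replicates 2 and 4. In bulk tissue fewer cells of a type and less RNA per cell cannot be told apart, and the part of these markers in the Atf4, Atf5 and Ddit3 levels was not tested.

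Levels of the 10 genes were compared per length, as CPM per kilobase of the gene length given in the count table. Atf5 stood first at 148 ± 25.7 CPM per kilobase and Atf4 second at 42.2 ± 7.53 (SD over all 6 libraries of both vectors), and in both steps, from Atf5 to Atf4 and from Atf4 to the next gene, the ranges did not overlap. Ppp1r15a (5.11 ± 0.711), Chac1 (4.79 ± 2.16), Ddit3 (3.55 ± 1.06), Nupr1 (3.27 ± 0.793), Trib3 (3.09 ± 1.16), Asns (2.59 ± 1.01) and Psat1 (2.26 ± 0.251) followed in CPM per kilobase, and each overlapped with its neighbor in that order. Phgdh was last at 0.856 ± 0.175 CPM per kilobase, below Psat1 in 6 of 6 libraries with no overlap. The mRNAs of Atf5 and Atf4, both controlled at translation, were thus above those of the other 8 genes in every library of either vector.

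**Figure D3:**
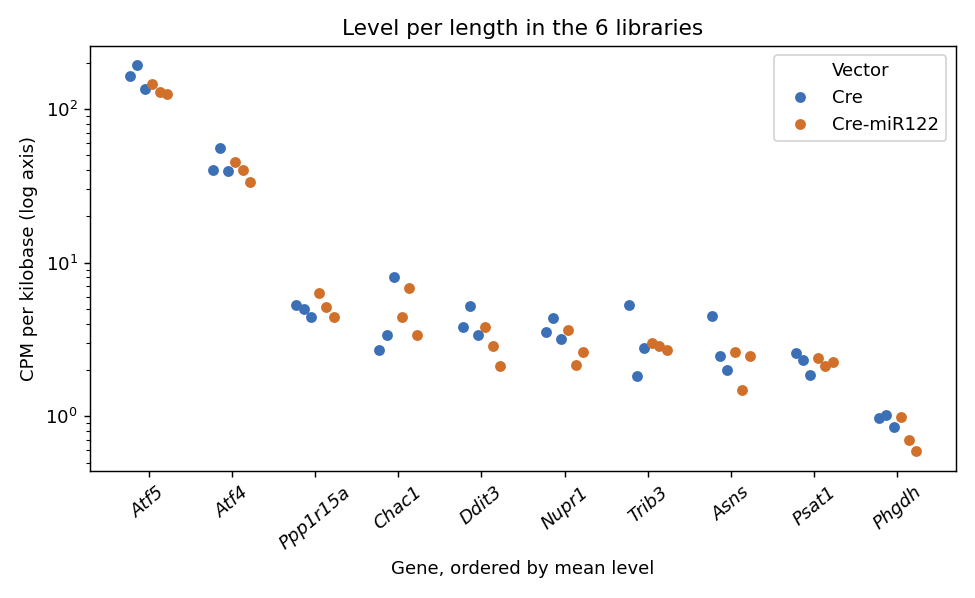
Each point is 1 library (blue Cre, orange Cre-miR122), and the vertical log axis gives CPM per kilobase for the 10 genes ordered by mean level. Atf5 and Atf4 stand apart at the top and Phgdh at the bottom, with 7 overlapping genes between.

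Genes that act before ATF4 gave no call either. All 4 genes of eIF2 kinases were tested and 0 were called by edgeR (smallest adjusted p = 0.816, 0 at an unadjusted p under 0.05), with 3 log2 fold changes above 0 and a median of 0.12. Eif2ak3, which encodes PERK, the sensor of endoplasmic reticulum stress, was at -0.19 (SE 0.11). Eif2ak4, which encodes GCN2, the sensor of uncharged tRNA, was at 0.16 (SE 0.097), with 17.7 to 17.9 CPM in the Cre libraries and 18.6 to 22.4 CPM in the Cre-miR122 libraries. Its groups did not overlap. Eif2ak2, the gene of PKR, was at 0.15 (SE 0.11). Leaving out Cre-miR122 replicate 1 gave -0.11 for Eif2ak3 and 0.072 for Eif2ak4, and leaving out Cre replicate 10 gave 0.067 for Eif2ak2.

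Of 12 genes for eIF2, its exchange factor eIF2B and the phosphatase, 0 were called by edgeR and 5 lay above 0, with a median of -0.0061. The largest value was that of Eif2s3x, the X-linked gene of the gamma subunit of eIF2, at 0.53 (SE 0.19, unadjusted p = 0.0209, edgeR adjusted p = 0.816). It was at 24.6, 31.0 and 44.6 CPM in Cre replicates 10, 11 and 12 and at 41.3, 50.3 and 53.4 CPM in Cre-miR122 replicates 1, 2 and 4. Its lowest library was Cre replicate 10, which alone had counts of the Y-linked copy Eif2s3y, 1151 against at most 1 elsewhere (that gene was chosen after its values were seen). Without Cre replicate 10 the Eif2s3x value was 0.36. Reads of such close copies may be split between them. In the other libraries, though, Eif2s3y had at most 1 count beside 665 to 1103 counts of Eif2s3x. The part of split reads in the Eif2s3x count of Cre replicate 10 was not tested. The part of sex in that count cannot be told apart from that library. The catalytic phosphatase genes Ppp1cb and Ppp1ca were at 0.14 (SE 0.075) and 0.11 (SE 0.083), the latter at 0.044 with Cre replicate 11 left out.

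Partner factors showed 6 log2 fold changes above 0 and 6 below among 12 genes tested, with 0 called and a median of 0.0031. Cebpb, the gene of a C/EBP partner of ATF4, followed a pattern of its own, at 108, 56.1 and 59.3 CPM in Cre replicates 10, 11 and 12 and at 110, 48.7 and 90.1 CPM in Cre-miR122 replicates 1, 2 and 4. It was high in libraries of both groups, with a log2 fold change of 0.15 (SE 0.31). Atf3, a stress-induced factor gene downstream of ATF4, was near 1 CPM, from 0.823 to 1.29 CPM, with a log2 fold change of -0.12 (SE 0.27). Batf3 (-0.66, SE 0.29, unadjusted p = 0.0488), Fos (0.77, SE 0.37) and Cebpa (-0.15, SE 0.080) had the smallest p of this list, and their edgeR adjusted p was 0.816 each. Fos had 43 counts in Cre-miR122 replicate 1 and 12 to 23 elsewhere, and was at 0.36 with that library left out.

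The other lists that include target genes of ATF4 gave no call either. Of the serine, one-carbon and proline enzymes 15 of 16 passed the filter, 11 lay above 0 and 4 below, and the median was 0.060. Psph, the last enzyme of serine synthesis, was at 0.18 (SE 0.16), and the mitochondrial folate enzymes Shmt2 and Mthfd2 were at 0.060 (SE 0.092) and -0.31 (SE 0.21). Single libraries decided part of these values: Psph was at 0.070 with Cre-miR122 replicate 1 left out, Shmt2 at -0.021 with Cre replicate 11 left out and Mthfd2 at -0.21 with Cre-miR122 replicate 4 left out. Shmt2 was at 166 to 202 CPM and Mthfd2 at 1.6 to 2.61 CPM, from 33 to 56 counts a library. Aldh1l1, a cytosolic folate enzyme abundant in hepatocytes, ranged from 594 to 880 CPM in the first group and from 895 to 912 CPM in the second, without overlap, and was lowest in Cre replicate 11. Its log2 fold change was 0.27 (SE 0.13, edgeR adjusted p = 0.816), and 0.13 with that library left out. The alanine transaminase gene Gpt2 was at 0.29 (SE 0.19), a value set by Cre-miR122 replicate 1 (203 CPM against 112 to 131 CPM) and at -0.0089 once that library was left out. The median of this list was 0.18 when Cre replicate 10 was left out and -0.021 when Cre replicate 11 was.

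The 20 cytosolic tRNA synthetase genes, a family that includes ATF4 targets, were all tested and spanned only -0.17 to 0.14. There were 11 above 0 and 9 below, with a median of 0.011 and 0 at an unadjusted p under 0.05. Vars was at 0.13 (SE 0.088), Eprs at 0.14 (SE 0.10) and Qars at 0.10 (SE 0.072). Eprs was at 0.054 with Cre replicate 11 left out and Vars at 0.080 with Cre-miR122 replicate 1 left out.

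Amino acid transporter genes under ATF4 had 7 of 9 tested values below 0, a median of -0.11 and 0 calls by edgeR or at an unadjusted p under 0.05. The median was -0.0024 when Cre replicate 11 was left out, and stayed below 0 with any other single library left out. Slc7a11, the cystine transporter gene, was nearly absent in liver, at 0, 2 and 0 counts in Cre replicates 10, 11 and 12 and 1 count in each Cre-miR122 library. Slc43a1 was at 0.22 (SE 0.12), the cationic amino acid transporter gene Slc7a1 at -0.28 (SE 0.22) and the glycine transporter gene Slc6a9 at -0.22 (SE 0.18). With Cre replicate 11 left out Slc43a1 was at 0.092 and Slc6a9 at -0.064, and with Cre-miR122 replicate 1 left out Slc7a1 was at -0.13.

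The secreted stress factors included the widest difference of these lists. Fgf21, the liver hormone gene of fasting and protein shortage and an ATF4 target, was at 4.16, 9.0 and 1.85 CPM in Cre replicates 10, 11 and 12 and at 2.89, 2.37 and 1.84 CPM in Cre-miR122 replicates 1, 2 and 4. Cre replicate 11 was the highest, as for Atf4 and Ddit3, and Cre replicate 12 was as low as the lowest Cre-miR122 library. Its log2 fold change was -1.09 (SE 0.47, unadjusted p = 0.0466, edgeR adjusted p = 0.816), and -0.35 without Cre replicate 11. Gdf15, another secreted factor of stress, was at 1.69 to 2.94 CPM and at -0.084 (SE 0.23), with the sign turned when Cre replicate 11 (0.023) or Cre-miR122 replicate 4 (0.12) was left out. Vegfa, the vascular growth factor gene, was at 263 to 337 CPM in the first group and 219 to 261 CPM in the second, without overlap (-0.26, SE 0.11, unadjusted p = 0.0489, edgeR adjusted p = 0.816), and was at -0.15 with Cre replicate 11 left out. Of 6 genes in the list 4 lay below 0, with a median of -0.058 (0.067 when Cre-miR122 replicate 4 was left out).

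Effectors of growth control, redox and autophagy had 14 of 23 values above 0, a median of 0.083 and 0 calls by edgeR, with 2 higher and 0 lower at an unadjusted p under 0.05, where 2.76% of all genes tested were higher and 2.65% lower. The median was -0.023 without Cre-miR122 replicate 1. Those 2 were Ppp1r3c, a glycogen-targeting phosphatase subunit (0.25, SE 0.082), and Tnfrsf10b, a death receptor gene induced by CHOP (0.68, SE 0.24). Tnfrsf10b had 18 to 24 counts in the Cre libraries against 28 to 35 in the others, without overlap and on the opposite side to Ddit3 itself. Sesn2 and Ddit4, which encode inhibitors of the growth kinase complex mTORC1, were at 0.11 (SE 0.24) and 0.14 (SE 0.35). Ddit4 turned to -0.33 without Cre-miR122 replicate 1, and Sesn2 to -0.10 when Cre replicate 11 and -0.044 when Cre-miR122 replicate 4 was left out. Eif4ebp1, a repressor of translation, was at -0.21 (SE 0.10), and at -0.11 with Cre replicate 10 left out.

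Genes of the IRE1 and ATF6 branches, the other arms of the response to unfolded proteins, lay mostly on the lower side with Cre-miR122. Of 19 tested, 14 were below 0, with a median of -0.23 (-0.10 without Cre replicate 11). At an unadjusted p under 0.05 there were 7 lower and 1 higher, where 2.65% and 2.76% of all genes tested were, and 0 were called by edgeR (smallest adjusted p = 0.816). The vector groups did not overlap for 11 of the 19, 9 lower and 2 higher, beside 11.1% of all genes tested. The B cell and neutrophil markers lay on the same lower side (medians of -0.65 and -0.46), and their part in these values was not tested. Hspa5, the main chaperone gene of the endoplasmic reticulum, was at 595, 720 and 560 CPM in Cre replicates 10, 11 and 12 and at 465, 516 and 482 CPM in Cre-miR122 replicates 1, 2 and 4. Its groups did not overlap, and Cre replicate 11 was again the highest. The log2 fold changes of Hspa5, Hyou1 and Manf were -0.36 (SE 0.11), -0.39 (SE 0.11) and -0.50 (SE 0.14). Whether the ATF4 genes and these chaperone genes differ in response was not tested. Sensors and chaperones of mitochondrial stress, which also feeds into ATF4, had 7 of 9 values above 0, a median of 0.080 (0.0001 when Cre replicate 11 was left out) and 0 calls, with Hspd1 at 0.14 (SE 0.10), Oma1 at 0.14 (SE 0.099) and Yme1l1 at 0.10 (SE 0.088). With Cre replicate 11 left out these were at 0.051, 0.089 and 0.034.

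**Figure D4:**
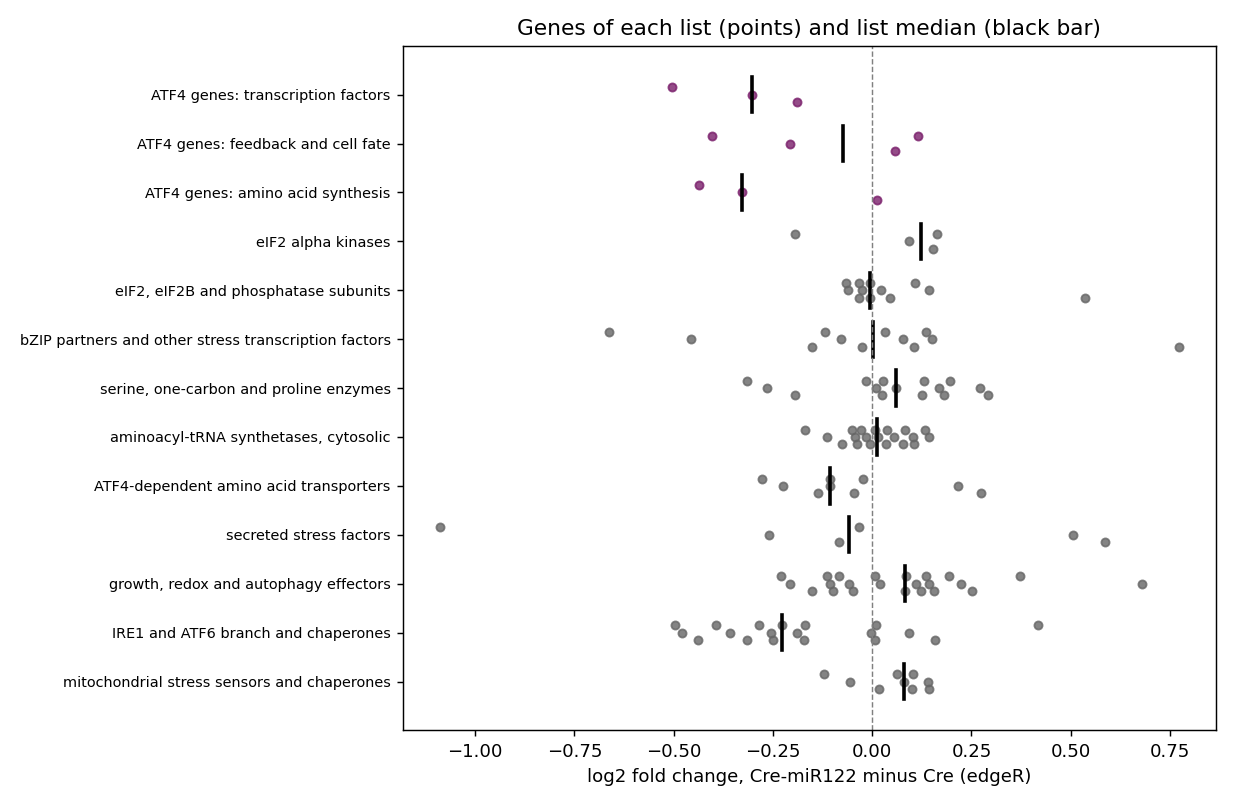
Each point is a gene tested, placed by its edgeR log2 fold change (Cre-miR122 minus Cre), with the 10 ATF4 genes in purple by role, the other lists in grey and the median of each list as a black bar. The tRNA synthetase genes lie tightly around 0, the IRE1 and ATF6 genes lie mostly below 0, and the point at -1.09 is Fgf21.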

How the data were processed

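The authors deposited raw whole-number read counts per gene for bulk liver mRNA, with no normalization, and a gene length for each row. STAR 2.7.9a, featureCounts 2.0.1 and the mouse build GRCm38 (mm10) are named per the submitters' processing notes. The sources used here do not state how strand and multi-mapped reads were handled. A further 5 columns fit no listed sample and were left out. Of the 35977 gene symbols 32501 matched a RefSeq gene table of GRCm38.p6.

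Counts of the 6 libraries were tested in edgeR 4.0.16 (R 4.3.3) with TMM scaling, filterByExpr, the quasi-likelihood F test with group alone, and Benjamini-Hochberg adjustment over all 14374 genes tested, with a threshold of 0.05. Standard errors were derived from the F statistic. CPM used TMM-scaled library sizes. The exact 95% Poisson intervals describe counting error alone, with no allowance for picking the highest and lowest of the 6 libraries. DESeq2 1.42.0, limma-voom (limma 3.58.1), other scalings and filters, and leaving out each library were the alternatives. The tests were tested on simulated data.

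The 10 genes, the 10 other pathway lists, the 10 marker lists and the alternatives were chosen with earlier results of these data known. Genes named are the 10, the 3 of smallest p in each pathway list and a fixed set of 13. Ddx3y, Eif2s3y, Xist and the Cre row were added after their values were seen. Single cell markers, also picked after their values were seen, and genes that share exon bases with the 10 are named too. Promoters came from RefSeq (GRCm38.p6), which held all 10 genes.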

Additional observations from a re-analysis of the deposited data

How the results depend on the processing

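No paired analysis was possible because the groups share no replicate number. Of the 10 ATF4 genes 0 were called under any of the 15 alternatives. Over all genes 0 were called, except 3 with DESeq2 and 2 with no filter on low counts, none of them among the 10 genes. The median log2 fold change of the 10 genes kept its sign, and 1 to 3 genes lay above 0 when each library was left out, with 1 without Cre-miR122 replicate 1. Of 47 single genes followed, 36 kept their sign under all 14 alternatives run on them. Psat1 stood at -0.0052 with upper-quartile scaling and -0.0121 with no scaling. When each library was left out, values ran from -0.11 to 0.12 for Psat1, -0.50 to 0.30 for Trib3, -0.27 to 0.68 for Chac1, -0.035 to 0.23 for Ppp1r15a, -0.0089 to 0.45 for Gpt2, -0.20 to 0.12 for Gdf15, -0.26 to 0.034 for Atf3, -0.10 to 0.52 for Cebpb, -0.10 to 0.41 for Sesn2, -0.33 to 0.46 for Ddit4 and -0.021 to 0.11 for Shmt2. The cause was not tested. Depth limits Phgdh and Nupr1, which had at most 59 counts in any library.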
